A study of Rattus norvegicus with 3 samples.

Results

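Sterol synthesis genes encode the enzymes of the mevalonate pathway, and 8 of them, Acat2, Hmgcs1, Mvk, Fdft1, Sqle, Lss, Cyp51 and Dhcr7, are described here in rat thoracic aorta after dosing with allylamine. They were chosen by measured values, because as a group they lay higher at both allylamine doses than on the one control array. Differences from control are therefore given as a description that carries no support of its own. Every probe set annotated with exactly 1 gene symbol was taken where that symbol was a member. This gave 19 of 8740 probe sets and 7 of the 8 genes, out of 4736 genes named on the array. Hmgcs1, HMG-CoA synthase, had no probe set of its own by this rule, so it was not analysed here.

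RNA was taken from the thoracic aorta of Sprague Dawley rats. The 3 groups, of 1 array each, had received water as control (1 ml/kg) or allylamine, at doses of 35 mg/kg or 70 mg/kg, over 20 days. How many rats each array stands for is not given. Allylamine is an amine toxic to the vessel wall, where amine oxidase turns it into the reactive aldehyde acrolein. Without replicate arrays the doses could be compared only as single values, with no test and no error between animals.

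Cells build cholesterol from acetyl-CoA. Acat2 and HMG-CoA synthase make the early intermediates, mevalonate is then phosphorylated and built into farnesyl diphosphate, and Fdft1 commits farnesyl diphosphate to squalene. Sqle, Lss, Cyp51 and Dhcr7 turn squalene into cholesterol. When the membranes of the endoplasmic reticulum are low in sterol, SREBP transcription factors are released and switch on these genes together, working with the factors NF-Y and Sp1 at nearby promoter sites. In the artery wall, smooth muscle and endothelial cells both make cholesterol and take it up from lipoproteins.

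The members' promoters are shown for the sites of these factors, as a description of sequence only. The RefSeq table (GRCr8) held the promoter of 6 of the 8 members, 300 bases each, from 250 before the start of transcription to 50 after it. The promoters of Cyp51 and Dhcr7, the genes with the largest differences from control at both doses, and of Mvk, the richest in NF-Y motifs, follow, written 5′ to 3′ on the gene's strand. Cyp51 lies at chr4:30991443-30991742 on the plus strand, Dhcr7 at chr1:208444184-208444483 on the plus strand and Mvk at chr12:47819454-47819753 on the minus strand. Capitals mark the NF-Y motif CCAAT, the Sp1 motif GGGCGG and the core sterol element TCACNCCAC with up to 1 mismatch, each on either strand.
Cyp51: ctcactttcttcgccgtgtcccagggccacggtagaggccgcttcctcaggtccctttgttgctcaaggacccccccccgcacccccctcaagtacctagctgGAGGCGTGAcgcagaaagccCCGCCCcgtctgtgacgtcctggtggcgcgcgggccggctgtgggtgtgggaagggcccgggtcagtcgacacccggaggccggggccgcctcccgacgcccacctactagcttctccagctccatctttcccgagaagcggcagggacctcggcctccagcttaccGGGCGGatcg
Dhcr7: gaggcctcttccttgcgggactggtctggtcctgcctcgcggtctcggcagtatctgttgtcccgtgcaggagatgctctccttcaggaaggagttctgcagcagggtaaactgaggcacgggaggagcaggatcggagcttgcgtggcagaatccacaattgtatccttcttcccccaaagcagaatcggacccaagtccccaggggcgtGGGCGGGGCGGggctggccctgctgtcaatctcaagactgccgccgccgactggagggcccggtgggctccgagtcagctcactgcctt
Mvk: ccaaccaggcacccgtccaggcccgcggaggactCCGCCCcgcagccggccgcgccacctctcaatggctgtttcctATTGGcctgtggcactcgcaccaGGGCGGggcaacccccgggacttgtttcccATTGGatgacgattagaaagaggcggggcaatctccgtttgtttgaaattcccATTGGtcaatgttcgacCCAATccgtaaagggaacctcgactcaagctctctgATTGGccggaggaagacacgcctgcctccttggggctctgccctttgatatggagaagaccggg

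The core sterol element without mismatch was in 0 of the 6 promoters and in 1.13% of all 27457 RefSeq promoters of this length. With up to 1 mismatch it was in 2 of 6, Acat2 and Cyp51, and in 23.5% of all promoters. The Cyp51 match, TCACGCCTC, lay on the minus strand 147 to 139 bases before the start. The Sp1 motif was in all 6 promoters, against 34.9% of all, and in Dhcr7 its 2 copies overlapped. CCAAT was in 3 of 6, against 37.7% of all: Mvk held 5 copies, Hmgcs1 2 and Lss 1. The E-box CANNTG was in 2 of 6 (Lss and Dhcr7), against 71.6%. The members' promoters were 60.3% to 69% G and C, against a median of 52.3% over all promoters. These matches describe letters in a short window and show neither binding nor its absence.

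The values are intensities scaled so that the arrays had a common median. Intensities under 188, the 40th percentile after scaling, were treated as below the floor, and a probe set was measured in a comparison if both of its intensities exceeded that floor. The log2 difference of a gene is the median over its measured probe sets. Probe sets of the same gene repeated each other poorly on these arrays. Over all genes with at least 2 measured probe sets, their log2 differences had a pooled SD of 1.40 at 70 mg/kg (490 genes) and 1.08 at 35 mg/kg (562 genes), and 52.9% and 54.6% of pairs had the same sign. This SD is the only repeat measurement available, and 6 of the 7 members with values at 70 mg/kg and 4 of 6 at 35 mg/kg rest on 1 measured probe set. The arrays also differed as a whole: relative to control, the median ratio of the 9 hybridisation control probe sets was 3.81 at 35 mg/kg and 28.8 at 70 mg/kg. The log2 range from the 5th to the 95th percentile narrowed across control, 35 and 70 mg/kg (6.58, 6.16 and 5.22). The part of these array differences in the members' values was not tested.

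Acat2, the cytosolic thiolase that joins acetyl-CoA units at the entry to the pathway, had 2 probe sets from the same sequence tag, and they ran in opposite directions. The first (rc_AA859980_g_at) read a scaled intensity of 393 in control, 712 at 35 mg/kg and 1085 at 70 mg/kg. The second (rc_AA859980_at) read 369, 101 and 77.2. In control the intensities were alike, and at 70 mg/kg they lay on either side of the floor. Acat2 therefore differed from control by 0.86 at 35 mg/kg and 1.47 at 70 mg/kg on the log2 scale from the first probe set alone. The second was at least 1.96-fold lower at each dose, and with no floor the gene's log2 difference was -0.51 at 35 mg/kg and -0.39 at 70 mg/kg.

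Mvk, the kinase that phosphorylates mevalonate, was higher at 70 mg/kg only. Its probe set rc_AA924198_s_at read a scaled intensity of 500 in control, 275 at 35 mg/kg and 1557 at 70 mg/kg, while M29472_at read 266, 269 and 179. The 70 mg/kg array was thus the highest for the first and the lowest for the second, where it lay just under the floor. The log2 difference of Mvk was -0.42 at 35 mg/kg (probe sets at -0.86 and 0.02) and 1.64 at 70 mg/kg from 1 probe set. With the values as deposited M29472_at lay above the floor, and the 70 mg/kg difference was 0.68 on the log2 scale. At 35 mg/kg Mvk went against the description of the group as higher at both doses.

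Fdft1, squalene synthase, which draws farnesyl diphosphate into sterol synthesis, had 4 probe sets in same-sequence pairs. All 4 were brighter at 35 mg/kg than in control, and 2 of 4 were brighter at 70 mg/kg. The pair from M95591 read scaled intensities of 168, 213 and 144 (M95591_at) and 230, 389 and 338 (M95591_g_at) at control, 35 and 70 mg/kg. The pair from an expressed sequence tag read 319, 761 and 139 (rc_H33426_at) and 21.3, 75.9 and 428 (rc_H33426_g_at). The 35 mg/kg array was the brightest for 3 of these probe sets, and the last was brightest at 70 mg/kg, at least 2.27-fold above control. The log2 difference of Fdft1 was 1.01 at 35 mg/kg from 2 probe sets (0.76 and 1.25), only just past 2-fold, and 0.56 at 70 mg/kg from 1 probe set. With the floor at the 25th percentile the 70 mg/kg value was -0.22.

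Sqle, squalene epoxidase, adds the first oxygen to squalene and is a control point of the pathway. Its only probe set, D37920_at, read a scaled intensity of 361 in control, 73.8 at 35 mg/kg and 359 at 70 mg/kg. Control and 70 mg/kg were alike, with a log2 difference of -0.01, and the 35 mg/kg array lay below the floor, at least 1.92-fold lower than control. In the main setting Sqle was thus higher than control at neither dose. Over the 11 settings that left a value at 70 mg/kg its log2 difference was -0.01 to 0.15, above 0 in 3.

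Lss, the cyclase that folds oxidosqualene into lanosterol, had 3 probe sets that were all brighter at 70 mg/kg than in control, by small amounts, and that disagreed at 35 mg/kg. D45252_s_at read a scaled intensity of 549 in control, 1618 at 35 mg/kg and 893 at 70 mg/kg, while U31352_at read 560, 134 and 799. E12275cds_s_at lay below the floor on every array, at 110, 58.3 and 151. The 35 mg/kg array was the brightest for the first and the dimmest for the others. The log2 difference of Lss at 70 mg/kg was 0.61, from probe sets at 0.51 and 0.70. At 35 mg/kg it was 1.56 from D45252_s_at alone, while U31352_at was at least 2.98-fold lower. With the floor at the 25th percentile the 35 mg/kg difference was -0.25, and with no floor it was -0.91.

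Cyp51, the demethylase that takes a methyl group off lanosterol, had the largest differences of the group and the most probe sets. Of the 5, 4 were brighter than control at 35 mg/kg, 4 at 70 mg/kg and 3 at both. The probe set above the floor on every array, rc_AI230255_at, read a scaled intensity of 204 in control, 896 at 35 mg/kg and 1003 at 70 mg/kg. AB004096_at read 89.7, 605 and 339, and U17697_s_at read 75.2, 211 and 178. These 3 probe sets were dimmest in control. The other two went apart between doses: rc_AA997614_s_at read scaled intensities of 92.4, 46.5 and 911, and rc_AA963449_s_at read 78.2, 153 and 49.3, below the floor throughout. On the log2 scale Cyp51 was higher than control by 2.13 at 35 mg/kg and 2.30 at 70 mg/kg, from rc_AI230255_at alone, whose control value lay just above the floor. Above control by a bound were AB004096_at, at least 3.21-fold at 35 mg/kg and at least 1.8-fold at 70 mg/kg, and rc_AA997614_s_at, at least 4.84-fold at 70 mg/kg. With no floor, the median of all 5 was 1.49 at 35 mg/kg and 1.92 at 70 mg/kg on the log2 scale. In all settings tried that left a value, Cyp51 was above control, by log2 differences of 1.49 to 2.16 at 35 mg/kg and 1.92 to 2.45 at 70 mg/kg.

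Dhcr7, the reductase that makes cholesterol from its last precursor, was the other gene above control at both doses in all settings tried that left a value. AB016800_at read a scaled intensity of 271 in control, 1006 at 35 mg/kg and 1148 at 70 mg/kg, while AB016800_g_at, from the same sequence, read 171, 194 and 100. The first was clearly brighter at both doses, and the second lay close to the floor or below it and was dimmest at 70 mg/kg. The log2 difference of Dhcr7 was 1.89 at 35 mg/kg and 2.08 at 70 mg/kg, from AB016800_at alone. With no floor, which lets in the second probe set, it was 1.04 at 35 mg/kg and 0.65 at 70 mg/kg.

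**Figure D1:**
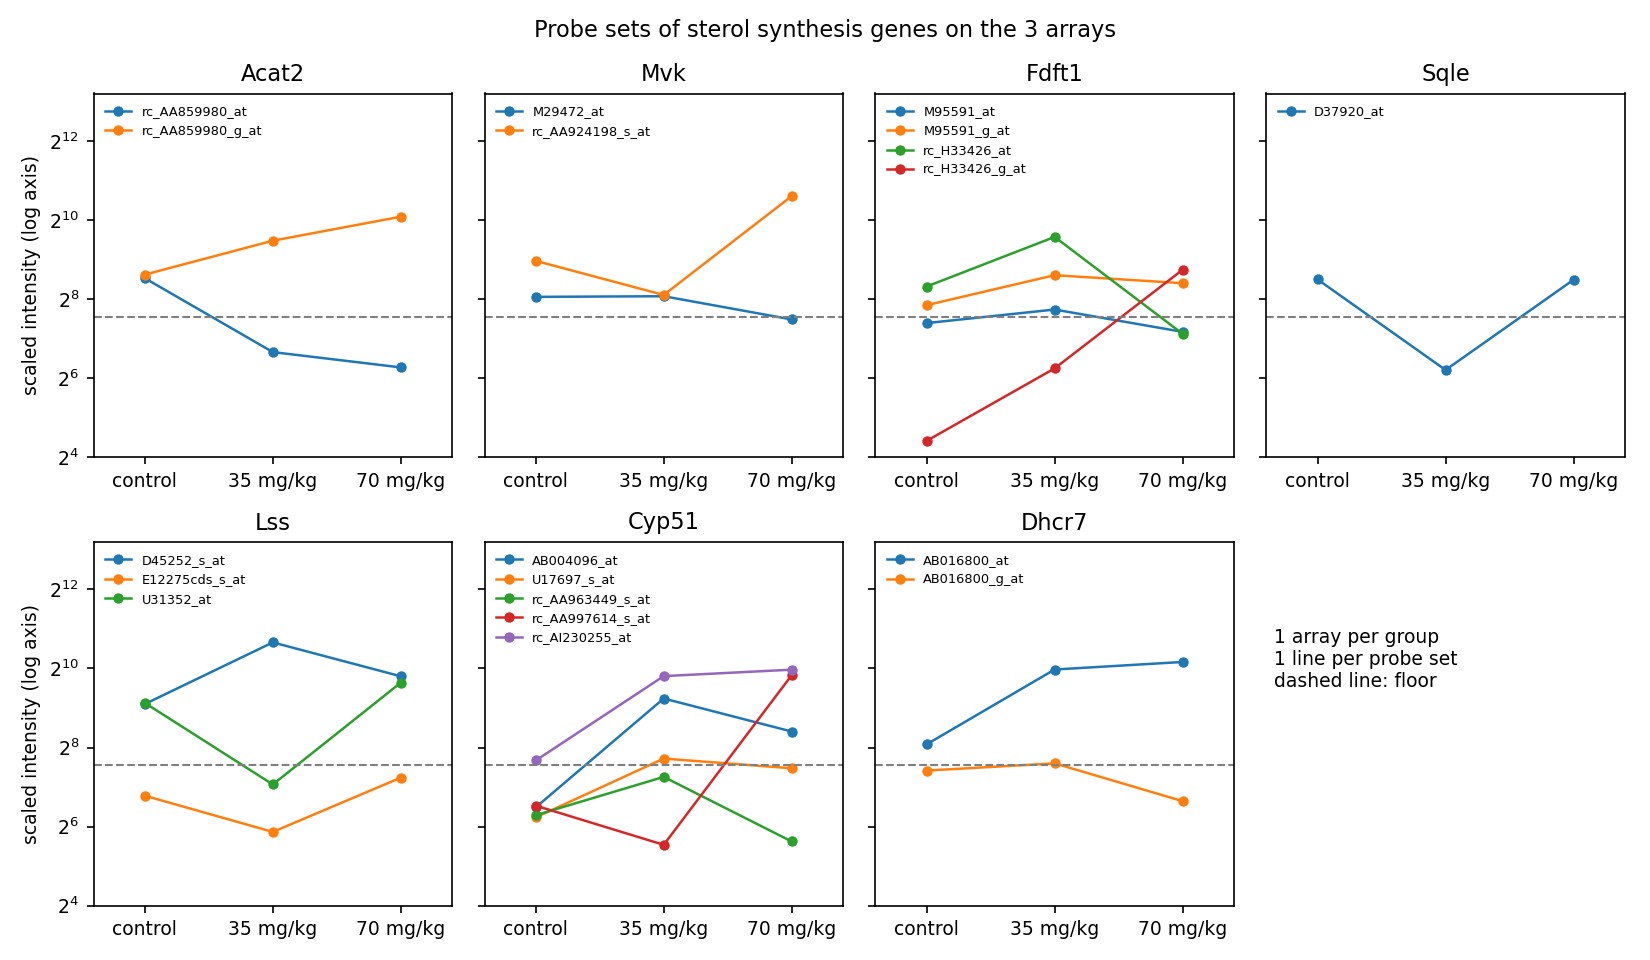
Scaled intensity (log axis) of each probe set of the 7 measured genes on the control, 35 mg/kg and 70 mg/kg arrays, 1 array per group, with 1 line per probe set and the floor of 188 dashed. Cyp51 and Dhcr7 each have a probe set that climbs from near the floor in control (204 and 271) to 896 or more at both doses, and every gene with more than 1 probe set, Cyp51 and Dhcr7 included, has probe sets on both sides of its control level at one dose or the other.

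Across the 19 probe sets, 12 were brighter than control at 70 mg/kg and 13 at 35 mg/kg, whatever their level. Over all 7006 probe sets with 1 symbol these shares were 52.0% at 70 mg/kg and 50.9% at 35 mg/kg, while the members' were 63.2% and 68.4%. Brighter than control at both doses were 8 of 19, or 42.1%, against 35.7% of all named probe sets. Since the genes were chosen on these same differences, nothing is read from the members' excess. Both doses were also compared with the same control array. Pairs of probe sets of the same member had the same sign in 11 of 22 cases at 70 mg/kg and 14 of 22 at 35 mg/kg, and over all named genes in 53.8% and 52.7%. Above the floor were 11 probe sets in control, 12 at 35 mg/kg and 11 at 70 mg/kg, with 6 above it on all arrays.

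By gene, 4 of 7 measured members lay 2-fold or more above control at 70 mg/kg (Acat2, Mvk, Cyp51 and Dhcr7) and 0 lay as far below it. Of all 2462 genes measured in that comparison 19.7% were at least 2-fold higher and 23.2% at least 2-fold lower. At 35 mg/kg 4 of 6 were that far above (Fdft1, Lss, Cyp51 and Dhcr7) and 0 below, against 16.8% and 16.3% of 2606 genes. The lists at the doses share Cyp51 and Dhcr7. Around the 2-fold line, Fdft1 lay just inside at 35 mg/kg (1.01) and Acat2 just outside (0.86). The median log2 difference of the members was 1.47 at 70 mg/kg and 1.28 at 35 mg/kg, against -0.06 and 0.04 for all genes. With no floor the members' medians were 0.51 and -0.42, and 1 of 7 (Cyp51) was past 2-fold upward at 70 mg/kg and 3 of 7 (Fdft1, Cyp51 and Dhcr7) at 35 mg/kg, where Sqle was past it downward. With no floor 28.4% of all genes lay past 2-fold upward at 70 mg/kg, and at 35 mg/kg 21.7% upward and 22.2% downward. The floor drops a probe set that is dim on either array. Probe sets of Acat2, Mvk, Fdft1, Lss and Sqle that were above it in control and below it at a dose thus did not enter the counts of genes below control. These counts do not speak for every member.

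**Figure D2:**
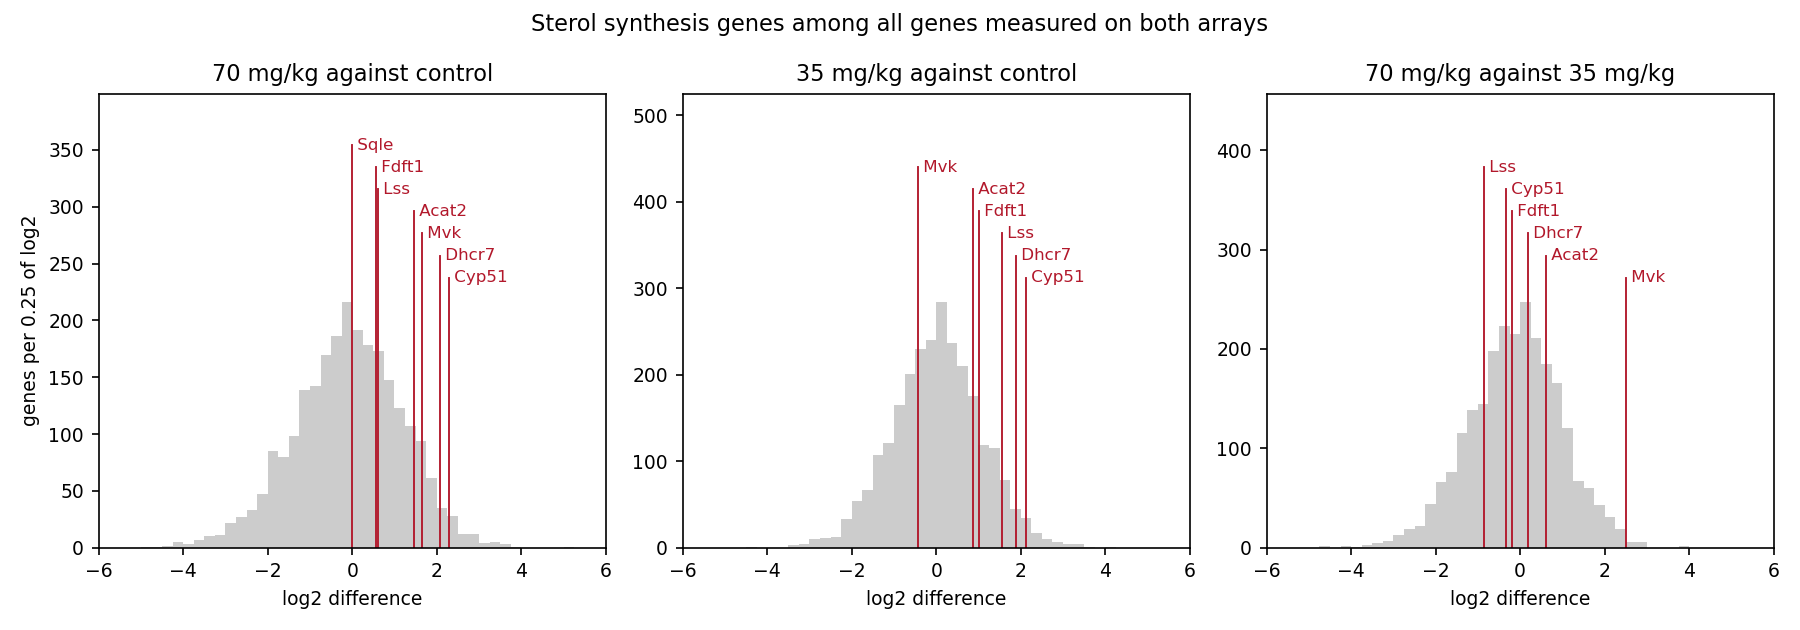
Number of genes per 0.25 of log2 difference (grey bars) for 70 mg/kg against control, 35 mg/kg against control and 70 against 35 mg/kg, with the measured members marked by lines whose heights have no meaning. The members lie mostly right of 0 in the comparisons with control that chose them, up to 2.30 for Cyp51, and on both sides of 0 between the doses, from -0.86 (Lss) to 2.50 (Mvk).

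**Figure D3:**
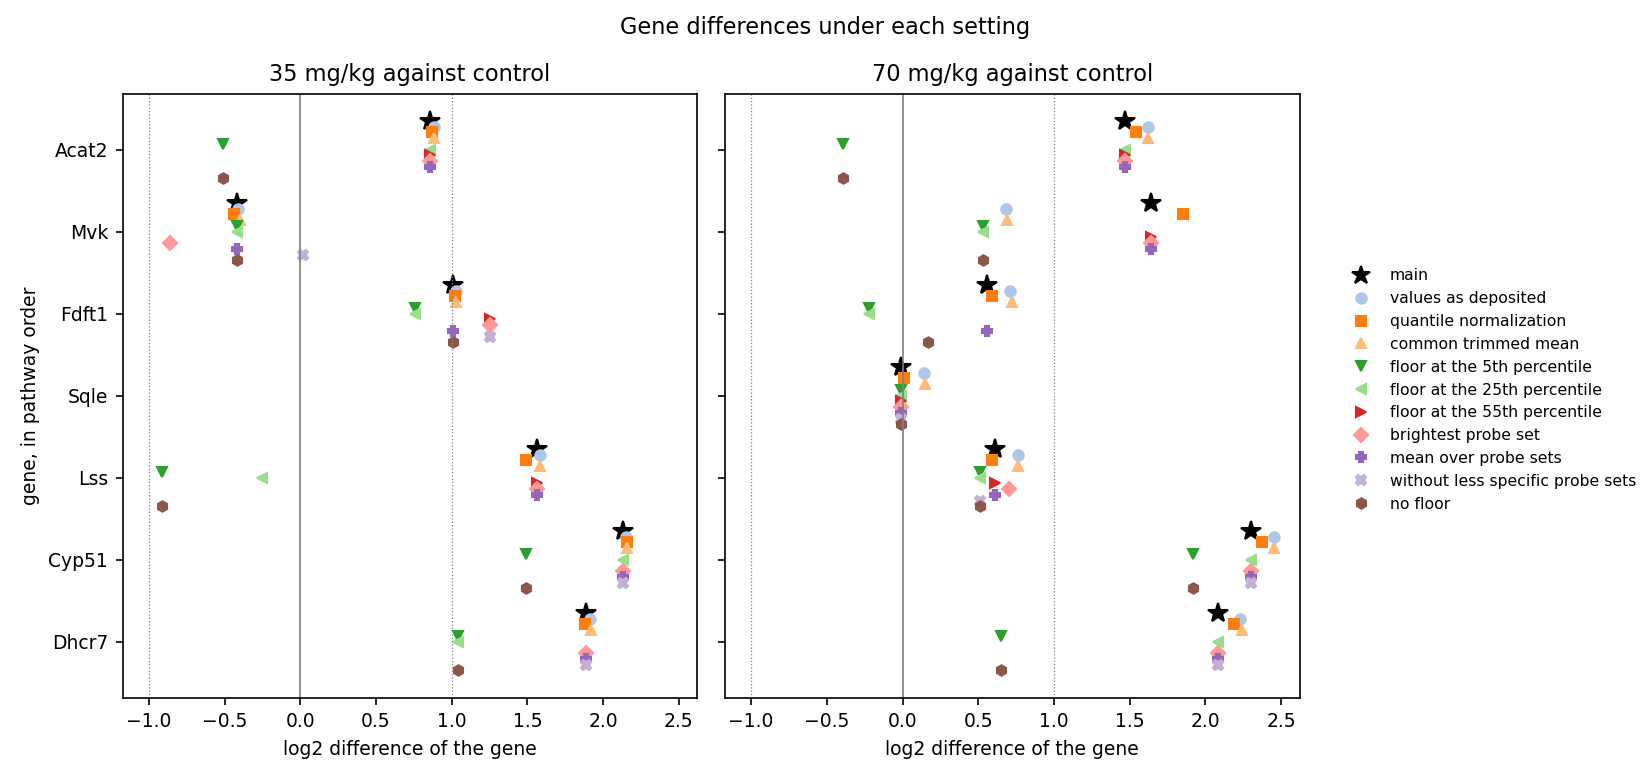
Log2 difference of each member from control at 35 and 70 mg/kg under the main setting (star) and each alternative that summarises by gene, with dotted lines at 2-fold; Sqle had no value at 35 mg/kg in the main setting and is not drawn there. Cyp51 and Dhcr7 stay right of 0 throughout, whereas Acat2 at both doses, Fdft1 at 70 mg/kg and Lss at 35 mg/kg change side under lower floors.

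Between the doses, a contrast that the choice of genes did not use directly, the measured members had no common direction. Their median log2 difference of 70 against 35 mg/kg was -0.01 over 6 genes, with 3 above 0, beside -0.06 for all genes. Mvk was the only member past 2-fold, higher at 70 mg/kg by 2.50 on the log2 scale, and with no floor it was at 0.96. In that setting Lss was at 1.37 and Sqle at 2.28, so the genes past 2-fold were these, and Lss had turned sign. Of all genes 24.6% were past 2-fold upward with no floor. Of all 2459 genes measured 14.4% were at least 2-fold higher and 20.9% at least 2-fold lower. Acat2 differed by 0.61 and Dhcr7 by 0.19, while Fdft1 was at -0.20, Cyp51 at -0.34 and Lss at -0.86, all on the log2 scale. The Cyp51 value came from probe sets at 0.16 and -0.84. Sqle was at least 1.91-fold higher at 70 than at 35 mg/kg. The Lss probe set U31352_at was higher at 70 mg/kg too (at least 4.24-fold), against -0.86 on the log2 scale for D45252_s_at.

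Of 16 further enzymes of the pathway on the list, 9 had a probe set with 1 symbol, and those measured lay on both sides of control. Past 2-fold at 70 mg/kg lay 1 upward and 1 downward of 5 measured, and at 35 mg/kg 1 upward and 1 downward of 4, beside the shares of all genes given above. With no floor 8 of 9, all but Ebp, lay above control at 70 mg/kg and 6 of 9 at 35 mg/kg, against 2456 and 2368 of all 4736 genes. Past 2-fold upward were then 5 of 9 at 70 mg/kg, and 2 of 9 at 35 mg/kg with 2 downward, beside the no-floor shares of all genes. Msmo1, which removes the next methyl groups after Cyp51, read scaled intensities of 317, 455 and 861 at control, 35 and 70 mg/kg on 1 probe set, a log2 difference of 0.52 and 1.44. Ebp, the isomerase that shifts the sterol double bond, went the other way, from 1201 in control to 423 and 428, log2 differences of -1.50 and -1.49. Of the measured enzymes after squalene, Cyp51, Msmo1 and Dhcr7 thus had gene values above control at both doses, Ebp lay below it, and Sqle was at or below it. Lss was above control at 70 mg/kg. At 35 mg/kg its value was above control from D45252_s_at alone, while U31352_at was at least 2.98-fold lower and the value with no floor was -0.91. Lbr, Nsdhl and Hsd17b7 were not measured against control at either dose.

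Upstream, Acat1, the mitochondrial thiolase that resembles Acat2 in reaction but serves ketone and isoleucine metabolism, again had disagreeing probe sets. D00512_g_at read scaled intensities of 238, 902 and 214 at control, 35 and 70 mg/kg, D00512_at read 174, 642 and 828, and D13921_s_at read 22.9, 110 and 162. All 3 were brighter at 35 mg/kg than in control, and the log2 difference of Acat1 from the first was 1.92 at 35 mg/kg and -0.15 at 70 mg/kg, or 2.25 at 70 mg/kg with no floor. Fdps, which makes farnesyl diphosphate, read 310, 479 and 483 on its measured probe set, log2 differences of 0.63 and 0.64. Mvd, which decarboxylates mevalonate diphosphate, differed by 0.23 on the log2 scale at 70 mg/kg. Idi1, which interconverts the isoprene building blocks, had no probe set above the floor in control. Its probe set rc_AI045395_at was higher at 70 mg/kg (at least 3.97-fold), and AF003835_at was higher at 35 mg/kg (at least 1.69-fold). Hsd17b7, a late reductase, read a scaled intensity of 46.6 in control, 82.4 at 35 mg/kg and 835 at 70 mg/kg, the last at least 4.44-fold more. Lbr, a sterol reductase of the nuclear envelope, read 133, 47 and 377, above control at 70 mg/kg by at least 2-fold. Nsdhl lay below the floor on every array.

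**Figure D4:**
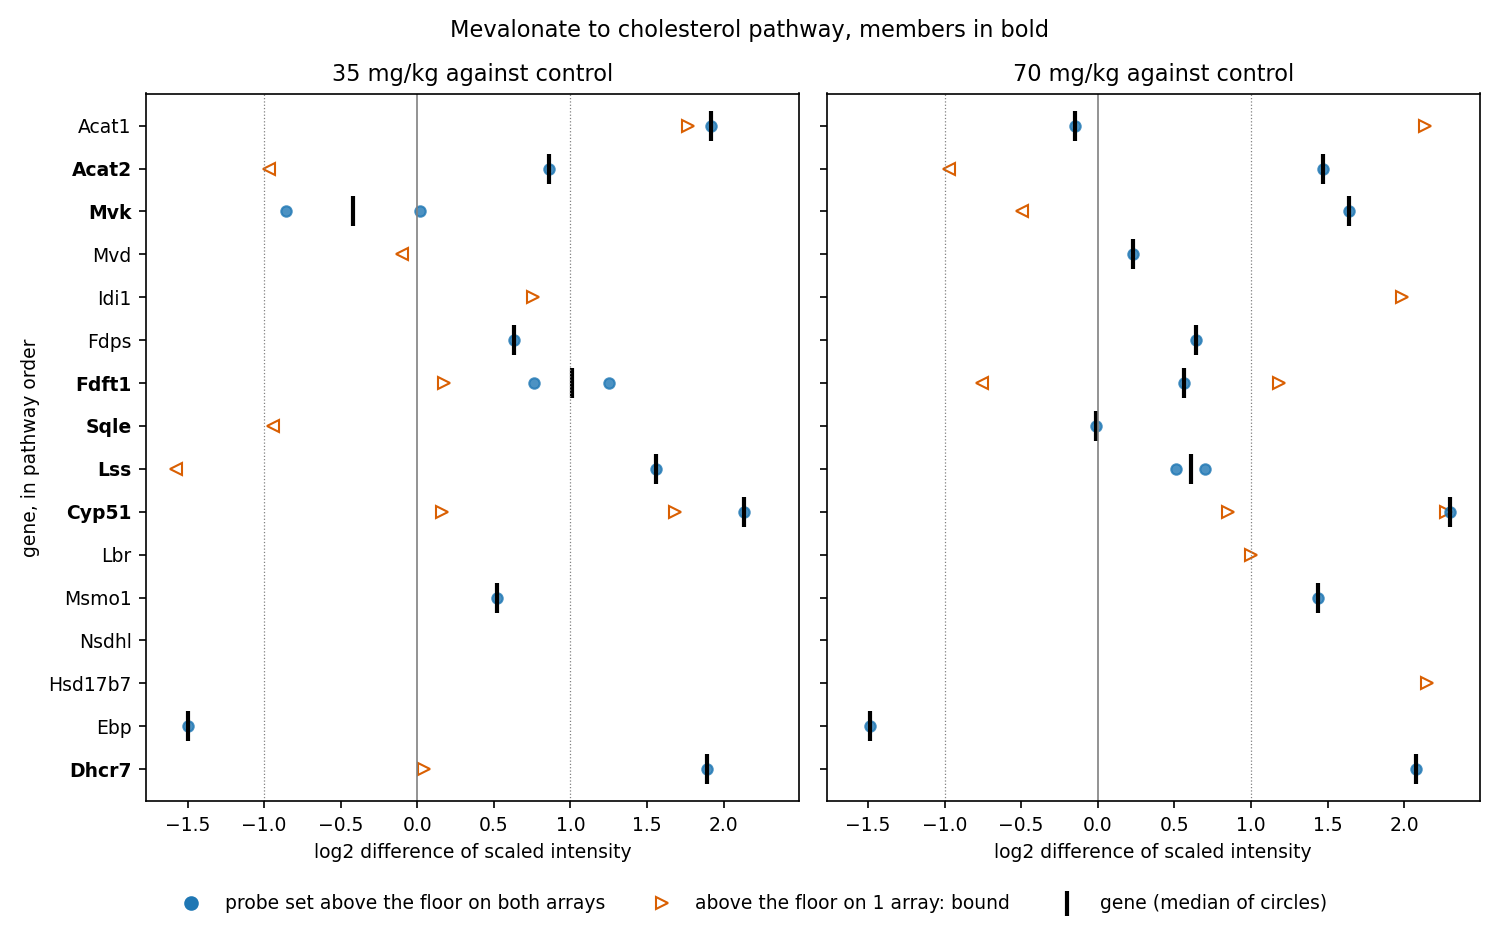
Log2 difference from control at 35 mg/kg and 70 mg/kg for enzymes in pathway order, members in bold, with circles for probe sets above the floor on both arrays, open triangles for bounds and a black bar for the gene's value. Members and neighbours lie on both sides of 0, from Ebp at -1.50 to Cyp51 at 2.13 at 35 mg/kg, and Acat1, Acat2, Mvk and Fdft1 at 70 mg/kg and Acat2 and Lss at 35 mg/kg have triangles opposite their circles.

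Most measured regulators of the pathway lay below control, with 1 of 5 above it at each dose. With no floor 5 of 9 were above it at 70 mg/kg and 3 of 9 at 35 mg/kg, against 2456 and 2368 of all 4736 genes. Of 9 sterol sensing genes with a probe set 5 were measured at each dose. Past 2-fold were 0 upward at either dose, 1 downward at 70 mg/kg and 2 at 35 mg/kg. Of all genes measured 19.7% were upward and 23.2% downward at 70 mg/kg, and 16.8% and 16.3% at 35 mg/kg. Genes that crossed the floor are outside these counts. Without the floor 2 of 9 lay past 2-fold in each direction at 70 mg/kg. At 35 mg/kg 1 of 9 was then upward and 3 downward. Over all 4736 genes 1345 were upward and 1198 downward at 70 mg/kg, and 1030 and 1053 at 35 mg/kg. Sp1 read scaled intensities of 28.1, 83.7 and 816 at control, 35 and 70 mg/kg, higher at 70 mg/kg by at least 4.33-fold. Of the NF-Y subunits, Nfya was alike on the arrays (964, 883 and 909). Nfyb read 746, 147 and 173 on M60617_g_at and 445, 178 and 179 on rc_AA817843_at, lower at each dose by at least 3.96-fold and 2.36-fold, while M60617_at was 1.37-fold or more above control at 70 mg/kg. Nfyc read 3840, 2995 and 1986 on rc_AA875121_at and 181, 88.1 and 475 on U17607_at, opposite directions at 70 mg/kg. Srebf1, the SREBP gene tied mainly to fatty acid synthesis, read scaled intensities of 702, 239 and 1180 at control, 35 and 70 mg/kg on 1 probe set. It was lowest at 35 mg/kg, with a log2 difference of -1.56, and was at 0.75 at 70 mg/kg. The oxysterol receptor Nr1h2 differed by 0.16 at 35 mg/kg and -1.14 at 70 mg/kg, while its relative Nr1h3 differed by -1.19 and -0.46, all on the log2 scale. Insig1, which holds SREBP back when sterol is plentiful and is itself a SREBP target, lay below the floor on every array, its brighter probe set reading 177, 122 and 177. Srebf2 and Scap were not analysed here.

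In cholesterol uptake, transport and efflux 1 of 8 measured genes lay past 2-fold in each direction at 70 mg/kg. Of all genes measured 19.7% were upward and 23.2% downward. At 35 mg/kg 1 of 5 lay past 2-fold in each direction, against 16.8% upward and 16.3% downward of all genes. The higher was Apob, the protein of low density lipoprotein, made mainly by liver and gut, with log2 differences of 1.12 at 35 mg/kg and 2.34 at 70 mg/kg (probe sets at 1.37 and 3.31). All but 1 of its 5 probe sets were brighter than control at both doses. The exception, M27440_at, read scaled intensities of 216, 115 and 2146 at control, 35 and 70 mg/kg. At 35 mg/kg the Apob difference was 0.11 with the floor at the 25th percentile, 1.89 at the 5th and 2.65 with no floor. The lower was Apoe, the lipoprotein of macrophages and liver, with log2 differences of -1.28 and -2.81 from X04979_at. Its other probe set read 101, 193 and 879, in the opposite direction. With no floor the Apoe difference at 70 mg/kg was 0.15. The list's counts also rest on the floor. Without it 3 of 12 genes lay past 2-fold upward and 0 downward at 70 mg/kg. At 35 mg/kg 2 of 12 were then upward and 3 downward. Over all 4736 genes 1345 were upward and 1198 downward at 70 mg/kg, and 1030 and 1053 at 35 mg/kg.

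Of genes that convert cholesterol to steroids, bile acids or oxysterols, 1 of 6 measured lay past 2-fold upward at 70 mg/kg. At 35 mg/kg 2 of 5 did, and 0 lay past it downward at either dose, beside the shares of all genes given above. The 0 downward rests on the floor. With no floor 1 of 9 lay past 2-fold in each direction at 70 mg/kg, and 2 of 9 in each direction at 35 mg/kg. Over all 4736 genes 1345 were then upward and 1198 downward at 70 mg/kg, and 1030 and 1053 at 35 mg/kg. Cyp11a1, the first enzyme of steroid hormone synthesis, read scaled intensities of 192, 358 and 493 at control, 35 and 70 mg/kg, and its log2 differences were 0.90 and 1.36. Cyp21a1, an adrenal steroid hydroxylase, read 502, 1259 and 863, log2 differences of 1.33 and 0.78, and Hsd3b5 read 197, 828 and 55.7. Cyp11a1 and Hsd3b5 lay near the floor in control. Of the enzymes that use farnesyl and geranylgeranyl diphosphate, 1 of 6 with a probe set, Fntb, was measured, with log2 differences of -0.59 at 35 mg/kg and 0.48 at 70 mg/kg.

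Fatty acid synthesis, which shares SREBP control, had no measured gene past 2-fold upward, of 7 at 70 mg/kg and 8 at 35 mg/kg. Of all genes measured 19.7% and 16.8% were. With no floor 3 of 10 were at each dose, against 1345 and 1030 of all 4736 genes, so the absence rests on the floor. Past 2-fold downward were 2 of 7 at 70 mg/kg (Fasn and Gpam) and 2 of 8 at 35 mg/kg (Gpam and Srebf1). The shares of all genes measured were 23.2% and 16.3%. Without the floor 1 of 10 was downward at 70 mg/kg and 3 of 10 at 35 mg/kg, against 1198 and 1053 of all 4736 genes. Fasn, the fatty acid synthase, differed by -0.41 at 35 mg/kg and -1.15 at 70 mg/kg on the log2 scale. Gpam, which starts glycerolipid synthesis, differed by -1.06 and -1.68 from 1 of its 5 probe sets, and with no floor by 1.09 and 0.48. Scd2, a desaturase that puts a double bond into stearate, had 6 probe sets, and S75730_at was below control at both doses (1752, 1469 and 901). The other 5 were brighter at 70 mg/kg than in control, M15114_at, U67995_s_at and M15114_g_at by at least 5.04-fold, 3.83-fold and 3.56-fold. In ketone metabolism Bdh1, which makes the ketone body hydroxybutyrate, differed by 1.05 on the log2 scale at 70 mg/kg.

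Cell type markers moved between these arrays, and their part in the members' values was not tested. Smooth muscle markers were above the floor for 5 of 5 genes in control and 4 of 5 at each dose, with summed scaled intensities of 5301, 3770 and 6749 at control, 35 and 70 mg/kg. Endothelial markers were above it for 4, 4 and 5 of 5 genes, with sums of 3446, 6364 and 6718. For other cells that make or store lipid, the adipocyte sum over 9 genes was 16179, 13849 and 7291, with Cfd below the floor on every array, and the Schwann cell and myelin sum over 7 genes was 11518, 14480 and 9615. The hepatocyte sum over 7 genes was 7464, 10845 and 8952, and the fibroblast sum over 7 genes was 31389, 80319 and 36978. Macrophage markers summed over 5 genes to 3610, 3204 and 4873, with Csf1r and Itgam below the floor throughout, and T cell markers over 7 genes to 5018, 2160 and 1551, with Cd2 below it. Striated muscle markers over 10 genes summed to 6922, 13336 and 12673, with Tnni3 below the floor, and erythroid markers over 2 genes to 397, 610 and 1870. Genes above the floor, in the same order, were 5, 7 and 7 for adipocyte and 5, 7 and 5 for Schwann cell markers. They were 6, 6 and 6 for hepatocyte and 7, 7 and 7 for fibroblast markers. Macrophage markers had 3, 2 and 3, T cell 6, 5 and 2, striated muscle 9, 5 and 6 and erythroid 1, 2 and 2. Adipocyte and striated muscle sums thus ran against their counts from control to either dose. In whole aorta, fewer cells of a type and less RNA per cell cannot be told apart.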

How the data were processed

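Total RNA of the thoracic aorta was measured on 3 arrays, 1 per group, per the labels. The deposited table holds linear intensities, 1 for each probe set on each array. The authors' software, and how they scaled the values, was not given in the sources used here, and the table has no detection calls. Its trimmed means (2% off each end) were 500 on each array, so it had been scaled. Precision is limited by having 1 array per group.

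Of 8799 probe sets 59 controls were left out. The platform annotation gave 1 symbol to 7006 probe sets, several to 308 and none to 1426, and only those with 1 were named. The RefSeq gene table (GRCr8) held 6985 of them by gene ID and changed 0 symbols. Arrays were scaled to a common median, shifting them by 0.06, 0.04 and -0.09 on the log2 scale (control, 35 and 70 mg/kg). Differences are log2 ratios. A bound is the bright scaled intensity over the floor. A gene counts as higher or lower from a log2 difference of 1. There was no test and no p-value. The calculation was tested on simulated data with the same effect in every probe set of a gene and less noise than these arrays show. That test checks the arithmetic only and does not speak for the calls made here. Python 3.11.15, numpy 2.4.6, pandas 2.3.3 and matplotlib 3.10.9 were used.

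The members and gene lists were chosen with earlier results of these data known. All members were named with every probe set. Of the other lists, genes past 2-fold at either dose against control and a set of entry, rate-limiting, uptake and regulatory genes were named. Fntb, Mvd, Nsdhl, Hsd17b7, Lbr, Sp1, Nfya, Nfyb, Nfyc and Scd2 were named after their values were seen. Alternatives were 3 scalings, 3 floors and 4 ways to summarise probe sets. A setting with no floor was chosen after seeing the data.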

Additional observations from a re-analysis of the deposited data

How the results depend on the processing

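The floor was the choice that moved the members most. With the floor at the 5th percentile and with no floor, the members' median log2 difference was -0.42 at 35 mg/kg and 0.51 at 70 mg/kg, with 1 member past 2-fold upward at the higher dose. At the 25th percentile the 70 mg/kg median was 0.53. With the values as deposited and with a common trimmed mean it was 0.76. At 35 mg/kg each of these floors, the 5th and 25th percentile and also the 55th, left 2 members past 2-fold upward. At 70 mg/kg 2 were with the floor at the 55th percentile and without less specific probe sets, both of which left 4 measured. Of the other pathway enzymes, 5 were past 2-fold upward at 70 mg/kg with the 5th percentile floor and with no floor and 4 with the 25th, against 1 in the main setting. At 35 mg/kg 2 were with the 5th percentile floor and no floor, and 0 with the 55th, the brightest probe set or without less specific probe sets. Of differences past 2-fold in the main setting, directions reversed for Acat2 at 70 mg/kg (-0.39, 5th percentile and no floor) and Lss at 35 mg/kg (-0.91, and -0.25 at the 25th). They also did for Apoe at 70 mg/kg (0.15) and for Gpam at 70 mg/kg (0.48) and 35 mg/kg (1.09, and 0.28 at the 25th). Smaller differences also turned sign, among others with no floor for Acat2 at 35 mg/kg (0.86 to -0.51) and Acat1 at 70 mg/kg (-0.15 to 2.25). Between the doses Lss (-0.86 to 1.37) and Dhcr7 (0.19 to -0.38) turned with no floor, and Cyp51 (-0.34 to 0.16) with the brightest probe set. Fdft1 at 70 mg/kg turned at the 5th and 25th percentile (0.56 to -0.22), and Mvk at 35 mg/kg without less specific probe sets (-0.42 to 0.02). Lower floors let in dimmer probe sets. Of 557 recomputed differences of single genes, 490 moved by less than 1.5-fold, 55 by more without reversing a 2-fold value, and 12 reversed. The 490 are no measure of how firm the values are. A gene with 1 measured probe set keeps its value under the mean over probe sets. Settings that left a gene no value are not counted. Over all genes, with no floor 1345 were past 2-fold upward and 1198 downward at 70 mg/kg, against 486 and 571. The median member difference between the doses stayed between -0.20 and 0.40.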
